A study of Mus musculus with 24 samples.

Results

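Pnpla3, Tm6sf2, Mboat7, Hsd17b13, Lyplal1 and Pemt are 6 of the 37074 gene names on a mouse liver microarray, and they were chosen because variants near the human genes, or loss of the mouse gene, are known to change how much fat the liver keeps. Every probe whose gene name on the array matched one of these names exactly was taken, which gave 14 of 56605 probes: 5 for Mboat7, 2 each for Pnpla3, Tm6sf2, Hsd17b13 and Pemt, and 1 for Lyplal1. The livers came from 24 male C57Bl6J mice, each on its own 1-colour array, and all mice were killed while fasting. The reference group (n = 9) came from a lineage bred for 3 generations on a growing diet with a small supplement of high-oleic sunflower oil, and was then kept on a low-fat diet. The HFoleic group (n = 8) came from the same oleic lineage and was fed for several months on an obesogenic diet rich in fat and in sucrose. The HFepa group (n = 7) received that obesogenic diet too, but came from a lineage bred with a supplement of fish oil rich in eicosapentaenoic acid (EPA). No low-fat group of the fish oil lineage was included, so HFepa minus reference joins the effects of diet and lineage.

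The liver stores fatty acids as triglyceride in lipid droplets, breaks them down there, or exports them in very-low-density lipoprotein (VLDL) particles, whose surface needs phosphatidylcholine. The 6 genes act at different places on that route: Pnpla3 and Hsd17b13 encode proteins of the droplet surface, Tm6sf2 an endoplasmic reticulum protein needed to load VLDL with lipid, Mboat7 an acyltransferase that puts arachidonic acid on phosphatidylinositol, Pemt the methyltransferase that makes phosphatidylcholine from phosphatidylethanolamine, and Lyplal1 a lysophospholipase-like serine hydrolase. Pnpla3 is known as a target of the lipogenic factors SREBP-1c and ChREBP, encoded by Srebf1 and Mlxipl, and is low in fasting liver.

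None of the 10 probes that could be tested was called by limma between any pair of groups after adjustment over all probes. The probes were read by the coordinates the array's annotation gives on the mm9 build. Both Tm6sf2 and Hsd17b13 had a probe whose coordinates span more than its 60 bases and which therefore crosses an intron in the genome, and Pemt had a probe upstream of its 3′-most one. These 3 are printed, 5′ to 3′, because each is the probe that shows a transcript from another place than its partner does, and the agreement of partners is used further on. Tm6sf2 probe 1 lies at chr8:72601399-72601824 on the plus strand, Hsd17b13 probe 2 at chr5:104399858-104401590 on the minus strand and Pemt probe 2 at chr11:59787580-59787639 on the minus strand.
Tm6sf2 probe 1: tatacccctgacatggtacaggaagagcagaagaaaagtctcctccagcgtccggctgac
Hsd17b13 probe 2: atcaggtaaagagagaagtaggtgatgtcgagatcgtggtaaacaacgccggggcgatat
Pemt probe 2: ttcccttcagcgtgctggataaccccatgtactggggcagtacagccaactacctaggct

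Levels are given as normalized log2 signal, on which a difference of 1 is a doubling, and a level cannot be set against that of another probe. A probe was tested where the scanner called it well above background in 75% or more of the livers of 1 group, which held for 30003 probes. Each array had 28804 to 34432 probes well above background and no saturated spot. The 3 slides each held arrays of all groups, and differences within slides are given in slide order. The hepatocyte markers were all measured, and their summed signal lay at 20.12 to 20.23 on the log2 scale on 23 arrays and at 19.98 on reference replicate 5, whereas the fat cell marker Adipoq and the bile duct marker Epcam did not pass the filter. That replicate stood apart: its median correlation with its group was 0.976, against 0.988 to 0.994 for the other 23 arrays, and its summed bile duct and stellate cell markers were 13.40 and 15.72, against highest values of 11.72 and 14.89 on the other arrays. In HFoleic minus reference 1 of 7 hepatocyte, 1 of 6 stellate cell and 1 of 4 bile duct markers were called, to be read against 8.07% of all genes. The largest marker medians in size were −0.23 for bile duct, −0.22 for blood and 0.17 for Kupffer cell and macrophage markers. The part of the markers in the results was not tested. The summed bile duct markers ran from 10.45 to 13.40 in the reference, with replicate 5 highest, and from 10.79 to 11.42 in HFoleic livers. Without that array the count of member probes called was still 0 in each comparison. In whole liver, fewer cells of a type and less RNA per cell cannot be told apart.

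Pnpla3, a triglyceride lipase of the droplet, was hardly measured. Its probes lie on the plus strand of chromosome 15 at 84016440 to 84016499 (probe 1) and 84019823 to 84019882 (probe 2), and both name the same transcript. Probe 1 was well above background in 4 of 9 reference, 1 of 8 HFoleic and 0 of 7 HFepa livers, and probe 2 in 0 of 9, 1 of 8 and 1 of 7. Neither could therefore be tested, and in most livers the signal of this gene was not well above background. The signal of probe 1 ran from 5.50 to 6.09 (median 5.63) in the reference group, from 5.20 to 5.73 (median 5.57) in HFoleic and from 5.40 to 5.65 (median 5.55) in HFepa livers. The 4 reference livers with a measured signal include the highest values of this probe, although the groups overlapped. With no filter, the differences of probe 1 were −0.17 for HFoleic minus reference (limma adjusted p = 0.393) and −0.19 for HFepa minus reference (limma adjusted p = 0.529), whereas probe 2 gave 0.15 and 0.15 (limma adjusted p = 0.542 and 0.732). The signs of the 2 probes were opposite and most of these values lie at background, so no direction is given for Pnpla3.

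**Figure D1:**
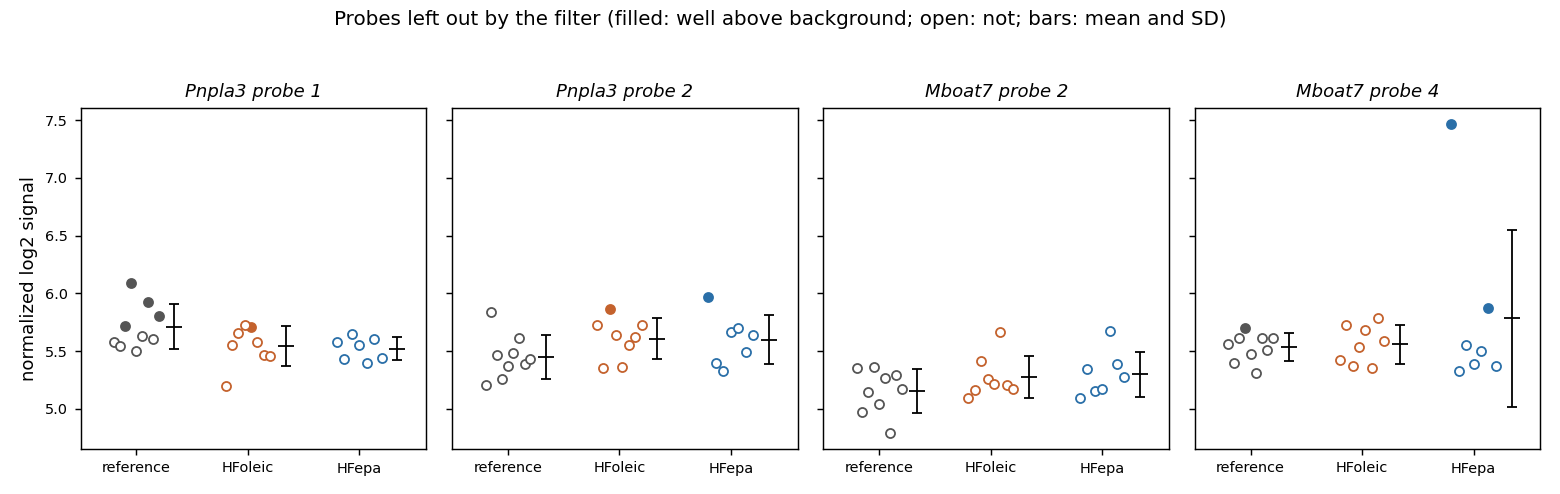
Normalized log2 signal of the 4 probes left out by the filter, 1 point per mouse, by group; filled points are well above background, open points are not, and bars give the mean and SD. Pnpla3 probe 1 has 4 filled points of 9 in the reference group, 1 of 8 in HFoleic and none of 7 in HFepa, and Mboat7 probe 4 has a single HFepa liver at 7.47.

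Hsd17b13, a retinol and steroid dehydrogenase of the droplet surface, varied widely among mice of a group. Probe 2 ran from 13.26 to 14.27 (median 13.61) in the reference, from 12.87 to 13.82 (median 13.60) in HFoleic and from 13.47 to 14.13 (median 13.65) in HFepa livers. The groups overlapped and their medians lay close together, with reference replicate 5 highest and HFoleic replicate 2 lowest. The difference HFepa minus HFoleic was 0.25 (95% interval −0.04 to 0.54, limma adjusted p = 0.580), and within slides it was 0.37, 0.18 and 0.26. HFoleic minus reference was −0.15 (−0.42 to 0.12, limma adjusted p = 0.582), and it was −0.06 without reference replicate 5. Probe 1 (chr5:104384701-104384760, minus strand) gave 0.13 (−0.16 to 0.42) for HFepa minus HFoleic and −0.12 (−0.40 to 0.15) for HFoleic minus reference. In HFepa minus reference probe 2 gave 0.10 (−0.18 to 0.39) and probe 1 gave 0.01 (−0.28 to 0.29), whose sign changed in other settings. With 1 array left out in turn, probe 2 ran from 0.16 to 0.30 in HFepa minus HFoleic and from −0.19 to −0.06 in HFoleic minus reference, nearest 0 without HFoleic replicate 2. In HFepa minus reference it ran from 0.04 (without HFepa replicate 4) to 0.19 (without reference replicate 5). Its relative Hsd17b11, also a droplet protein and its neighbour in the genome, gave 0.30 for HFepa minus HFoleic (limma adjusted p = 0.519) and −0.22 for HFoleic minus reference (limma adjusted p = 0.374). Other relatives differed in sign: in the same comparisons Hsd17b2 gave −0.26 and 0.25, Hsd17b12 −0.12 and 0.20, and Hsd17b7 0.13 and −0.10. None of these relatives was called.

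Tm6sf2 was lower on average in both obesogenic groups than in the reference, by less than the test could tell apart. Probe 2 (chr8:72603892-72603951, plus strand) ran from 10.58 to 11.47 (median 11.14) in the reference, from 10.66 to 11.01 (median 10.90) in HFoleic and from 10.64 to 11.11 (median 10.89) in HFepa livers. The reference group spanned both other groups, with replicate 2 lowest and replicate 1 highest of all 24. HFoleic minus reference was −0.19 (95% interval −0.38 to 0.00, limma adjusted p = 0.248), with slide values of −0.03, −0.37 and −0.17. The difference HFepa minus reference was −0.17 (−0.37 to 0.03, limma adjusted p = 0.479), a comparison that shares the 9 reference livers with the former. The probe over the intron gave −0.13 (−0.30 to 0.04) and −0.07 (−0.24 to 0.11), but on the first slide its values were 0.07 and 0.15. With 1 array left out in turn, HFoleic minus reference on probe 2 ran from −0.25 to −0.14. It was −0.25 without reference replicate 2 (limma adjusted p = 0.0705) and −0.18 without reference replicate 5 (limma adjusted p = 0.305). The SD of probe 2 was 0.27 in the reference, 0.11 in HFoleic and 0.17 in HFepa livers; this difference in spread was not tested.

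Mboat7 had the smallest adjusted p of the member probes. Probe 1 (chr7:3629586-3629645, minus strand), on its RefSeq transcript, ran from 10.84 to 11.01 (median 10.94) in the reference, from 10.95 to 11.16 (median 11.04) in HFoleic and from 10.81 to 11.11 (median 11.01) in HFepa livers. All 8 HFoleic livers lay above the reference mean, although the groups overlapped. The same held for Lyplal1, and on both Tm6sf2 probes all 8 lay below the reference mean. HFoleic minus reference was 0.13 (95% interval 0.03 to 0.22), or 1.09-fold (limma adjusted p = 0.0905), and within slides it was 0.16, 0.12 and 0.09. It was called in 2 other settings, the methods' t-test on the same values (adjusted p = 0.0250) and the scanner's processed signal (0.17, limma adjusted p = 0.0398). The corresponding HFepa minus reference was 0.06 (−0.04 to 0.15, limma adjusted p = 0.667), and HFepa minus HFoleic was −0.07 (−0.17 to 0.03, limma adjusted p = 0.656).

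The other Mboat7 probes are annotated to separate Ensembl transcripts. Probe 5 (chr7:3641512-3641571) gave 0.17 (0.01 to 0.32, limma adjusted p = 0.196) for HFoleic minus reference, the same sign as probe 1, and its HFepa minus reference and HFepa minus HFoleic were 0.11 (−0.06 to 0.27) and −0.06 (−0.23 to 0.10), again with the sign of probe 1. Probe 3 (chr7:3636238-3636297) gave −0.03 (−0.18 to 0.12, limma adjusted p = 0.853) for HFoleic minus reference. Probe 2 was well above background on no array, and probe 4 on 1 reference and 2 HFepa arrays. Over the 24 arrays the Pearson correlation of probe 1 was −0.05 with probe 3 and 0.09 with probe 5, and 0.01 and −0.25 after the group means were subtracted. Probes 1 and 5 thus shared the sign of their group differences but did not vary together among mice, and whether the Ensembl transcripts are liver transcripts of Mboat7 was not tested. By contrast, the pairs of the other genes varied together: 0.82 for Tm6sf2, 0.60 for Pemt and 0.57 for Hsd17b13, and 0.80, 0.53 and 0.54 after the group means were subtracted. These correlations describe the same 24 arrays, whose normalization they share.

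**Figure D2:**
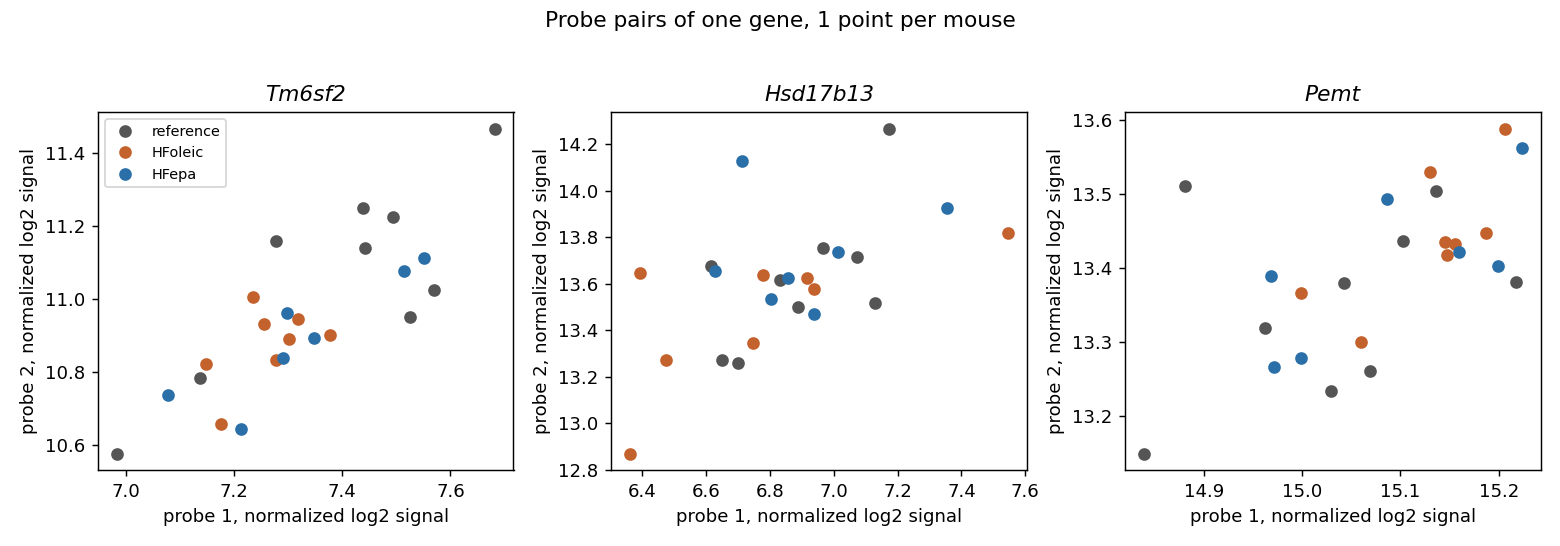
Signal of probe 1 against probe 2 of Tm6sf2, Hsd17b13 and Pemt, both as normalized log2 signal, 1 point per mouse and coloured by group. The pairs rise together with Pearson correlations of 0.82, 0.57 and 0.60, and the groups are mixed along each trend.

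Pemt, which supplies phosphatidylcholine for VLDL, varied little among mice. Probe 1 (chr11:59784123-59784182, minus strand) ran from 14.84 to 15.22 (median 15.04) in the reference, from 15.00 to 15.21 (median 15.15) in HFoleic and from 14.97 to 15.22 (median 15.09) in HFepa livers. The groups overlapped almost wholly, with the reference reaching lowest. HFoleic minus reference was 0.10 (95% interval −0.02 to 0.21, limma adjusted p = 0.325), and probe 2 gave 0.09 (−0.03 to 0.21, limma adjusted p = 0.420). The probes had within-slide differences of 0.21 and 0.24 on the first slide and −0.02 and −0.05 on the second. HFepa minus HFoleic was −0.04 on either probe (intervals −0.16 to 0.08 and −0.16 to 0.09), which allow ratios of 0.893 to 1.06.

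Among the tested member probes, that of Lyplal1 showed the largest difference between the lineages under the obesogenic diet. Its probe (chr1:187912313-187912372, minus strand) ran from 6.84 to 8.07 (median 7.68) in the reference, from 7.61 to 8.19 (median 7.76) in HFoleic and from 7.24 to 7.85 (median 7.53) in HFepa livers. The HFepa livers reached lower than the HFoleic livers, but the reference group covered nearly the whole range of both, with replicate 6 lowest. HFepa minus HFoleic was −0.28 (95% interval −0.56 to −0.01), a ratio of 0.822, with an unadjusted limma p of 0.0431 and an adjusted p of 0.498, and 6 of 7 HFepa livers lay below the HFoleic mean. Within slides the difference was −0.39, −0.25 and −0.15. HFoleic minus reference was 0.20 (−0.06 to 0.46, limma adjusted p = 0.377) and HFepa minus reference −0.08 (−0.35 to 0.18, limma adjusted p = 0.854). With 1 array left out in turn, these ran from 0.11 to 0.26 and from −0.18 to −0.02, with the extremes without reference replicate 6 or 8, and HFepa minus HFoleic from −0.34 to −0.23.

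**Figure D3:**
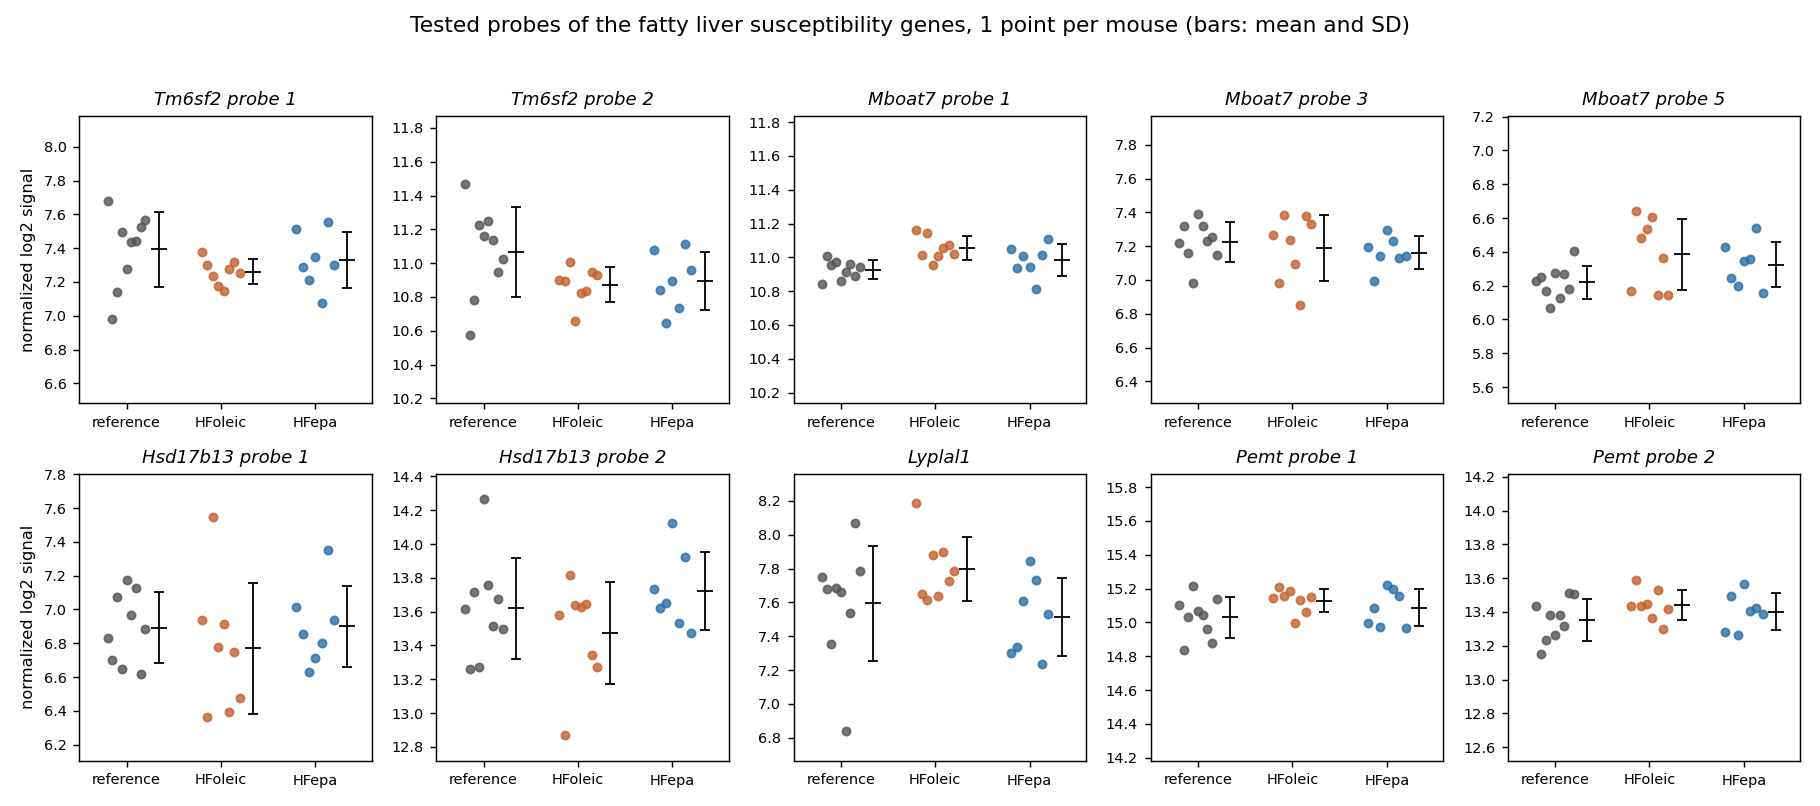
Normalized log2 signal of the 10 tested probes by group, 1 point per mouse, with the group mean and SD as bars; each panel spans the same height on the log2 scale around its own values. All groups overlap in every panel, and the SD of Pemt and Mboat7 probe 1 is 0.12 or less in each group.

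Over the 3 comparisons the differences of the member probes lay between −0.28 and 0.25. In HFoleic minus reference, 0 of 10 were called at an adjusted p under 0.05, against 7.23% of all 30003 probes, and 2 had an unadjusted p under 0.05 (Mboat7 probes 1 and 5) against 21.1% of all probes. Their median absolute difference was 0.13, beside 0.10 for all probes, and 5 were higher and 5 lower. In HFepa minus reference, 0 of 10 were called, against 0.393% of all probes, and none had an unadjusted p under 0.05, against 13.5%. In HFepa minus HFoleic, 0 of 10 were called, as were 0% of all probes, and 1 (Lyplal1) had an unadjusted p under 0.05, against 9.70%. The outermost limit of any 95% interval was 1.37-fold in HFoleic minus reference, 1.31-fold in HFepa minus reference and 1.47-fold in HFepa minus HFoleic, and these limits cover only the 10 tested probes, with no bound for Pnpla3 or for Mboat7 probes 2 and 4. With the slide as a block the count called was again 0 in each comparison, whereas the methods' t-test and the processed signal each called 1 in HFoleic minus reference, Mboat7 probe 1.

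**Figure D4:**
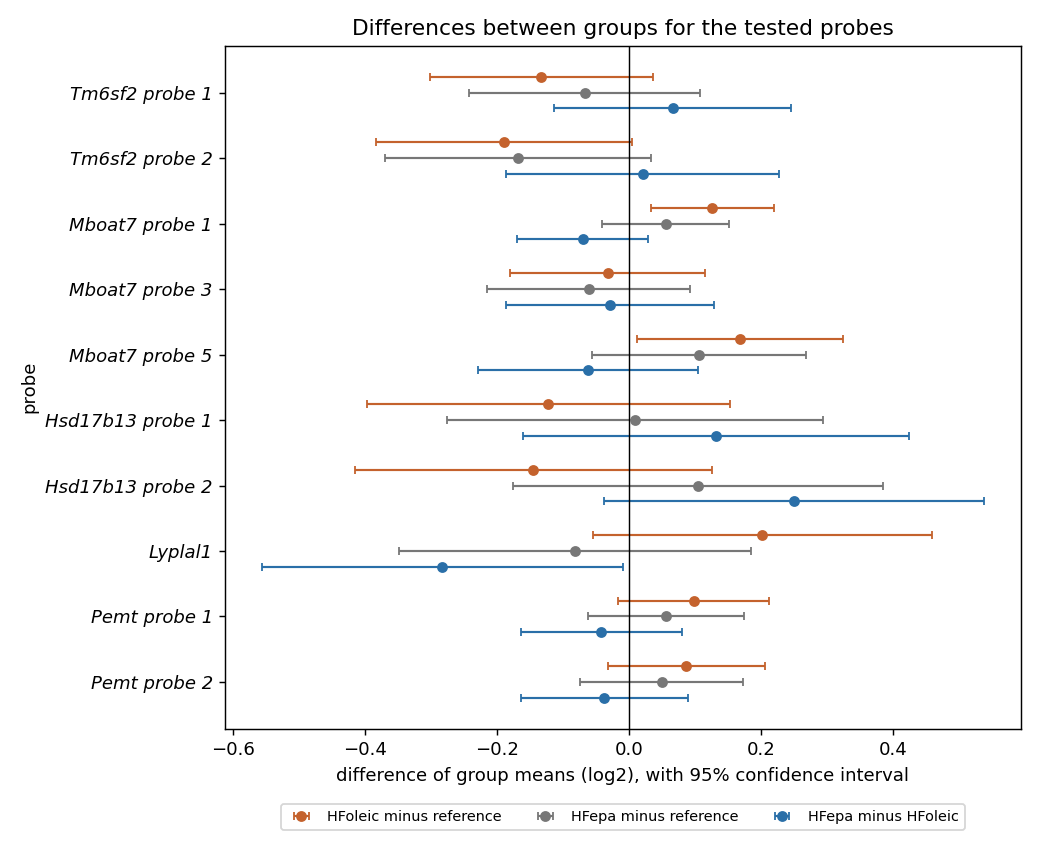
Difference of group means (log2) for each tested probe in the 3 comparisons, with 95% confidence intervals that are not adjusted for the number of probes. No difference lies beyond 0.28 in size; the intervals of Mboat7 probes 1 and 5 in HFoleic minus reference and of Lyplal1 in HFepa minus HFoleic do not reach 0.

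Beside 7.23% of all probes called in HFoleic minus reference, 0 of 10 does not set the member probes apart. Some other genes of hepatic fat were called in the same livers. Each gene was read by its brightest tested probe, by which 8.07% of 20192 genes were called in HFoleic minus reference. Over the 7 lists of the lipid pathways, relatives and other human loci, 19 of 132 genes were called (29 without reference replicate 8). These lists were written with earlier results of these data known, so their counts are a description and no test. Of 21 genes of sterol and lipogenic control, 4 rose and 2 fell (median difference 0.05, beside −0.01 over all genes). Insig1, which holds SREBP in the endoplasmic reticulum, rose by 1.47 (limma adjusted p = 0.000401), Srebf1 by 1.02 (limma adjusted p = 0.00552) and Mlxipl by 0.55 (limma adjusted p = 0.00163). Acacb, the acetyl-CoA carboxylase that makes malonyl-CoA at mitochondria, fell by 0.78 (limma adjusted p = 0.0225), and Insig2 fell by 0.55 (limma adjusted p = 0.00638). Of their probes, 1 of 3 was called for Mlxipl, 1 of 3 for Acacb and 2 of 3 for Insig2. The call of Acacb was lost with the methods' t-test, and without HFoleic replicate 3 or 8. Nr1h3, the LXR alpha receptor, was at 0.10 (limma adjusted p = 0.256). Srebf1 and Mlxipl, known as regulators of Pnpla3, thus rose in HFoleic livers. Pnpla3 was well above background on 1 of 8 of those arrays by each probe, so whether its level followed them was not tested. In HFepa minus reference, Srebf1 was at 0.41 (limma adjusted p = 0.448) and in HFepa minus HFoleic at −0.61 (limma adjusted p = 0.373).

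Of 23 genes of the lipid droplet and lipolysis, none rose and 3 fell in HFoleic minus reference (median −0.05). Pnpla2, the adipose triglyceride lipase and a relative of Pnpla3, fell by 0.60 (limma adjusted p = 0.00154), Plin5, a droplet coat protein of oxidative tissue, fell by 0.60 (limma adjusted p = 0.00563), and Cidec, which enlarges droplets, fell by 1.72 (limma adjusted p = 0.0243). Cidec is also a fat cell gene, and the summed fat cell markers ranged from 10.22 to 13.94 in the reference, 10.54 to 13.58 in HFoleic and 10.39 to 12.72 in HFepa livers; their part in its difference was not tested. Its call was lost with the methods' t-test, and without HFoleic replicate 2 or 8 or reference replicate 1. Among 19 tested relatives of the 6 genes, Pnpla2 was the 1 called. This count and that of the 23 genes are to be read against 8.07% of all genes.

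In the pathways of the other members, 2 of 17, 2 of 17 and 1 of 18 genes were called in HFoleic minus reference, which is to be read against 8.07% of all genes. Of the VLDL genes, 2 rose: Erlin1, an endoplasmic reticulum protein, by 0.44 (limma adjusted p = 0.00820) and Tmem41b, a scramblase of the endoplasmic reticulum, by 0.37 (limma adjusted p = 0.00605), while Mttp and Apob, the core of VLDL assembly, were at −0.10 and 0.12 (limma adjusted p = 0.602 and 0.484). Of the genes of phosphatidylcholine synthesis and methyl donors, 2 fell. Mat1a, which makes the methyl donor that Pemt uses, fell by 0.65 (limma adjusted p = 0.00135), and Ahcy, which clears the product of methylation, fell by 0.43 (limma adjusted p = 0.00952). Pemt itself, at 0.10 and 0.09, was not called beside them. Of the genes of acyl chain remodelling and phosphatidylinositol, Acsl4, an acyl-CoA synthetase that prefers arachidonic acid, fell by 0.65 (limma adjusted p = 0.0301), with 1 of its 3 probes called. Its call was lost when HFoleic replicate 1, 5, 7 or 8 or reference replicate 3 was left out. It was also lost with the methods' t-test, with no filter and with only the groups compared.

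Of 29 other genes at human fatty liver loci, 3 rose and 3 fell in HFoleic minus reference. Erlin1 (above), Adh1, an alcohol dehydrogenase, by 0.39, and Gckr by 0.27 rose (limma adjusted p = 0.00820, 0.00403 and 0.0264). Ppp1r3b, a glycogen-targeting subunit of protein phosphatase, fell by 0.50, Tor1b fell by 0.44 and Samm50, a mitochondrial outer membrane assembly protein, fell by 0.43 (limma adjusted p = 0.0264, 0.0101 and 0.00344). The call of Gckr was lost without HFoleic replicate 4, 6 or 8 or reference replicate 1, and that of Ppp1r3b without HFoleic replicate 4 or 6 or reference replicate 7. With no filter both of these calls were lost too. Insig2, Adh1 and Gckr were named after their values were seen, to complete these counts. Samm50 lies next to Pnpla3 and Srebf1 near Pemt, and they were the 2 called in that comparison among 31 tested genes within 3 protein-coding genes on either side of a member, a list drawn up after the data were seen. This count and that of the 29 genes are to be read against 8.07% of all genes.

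**Figure D5:**
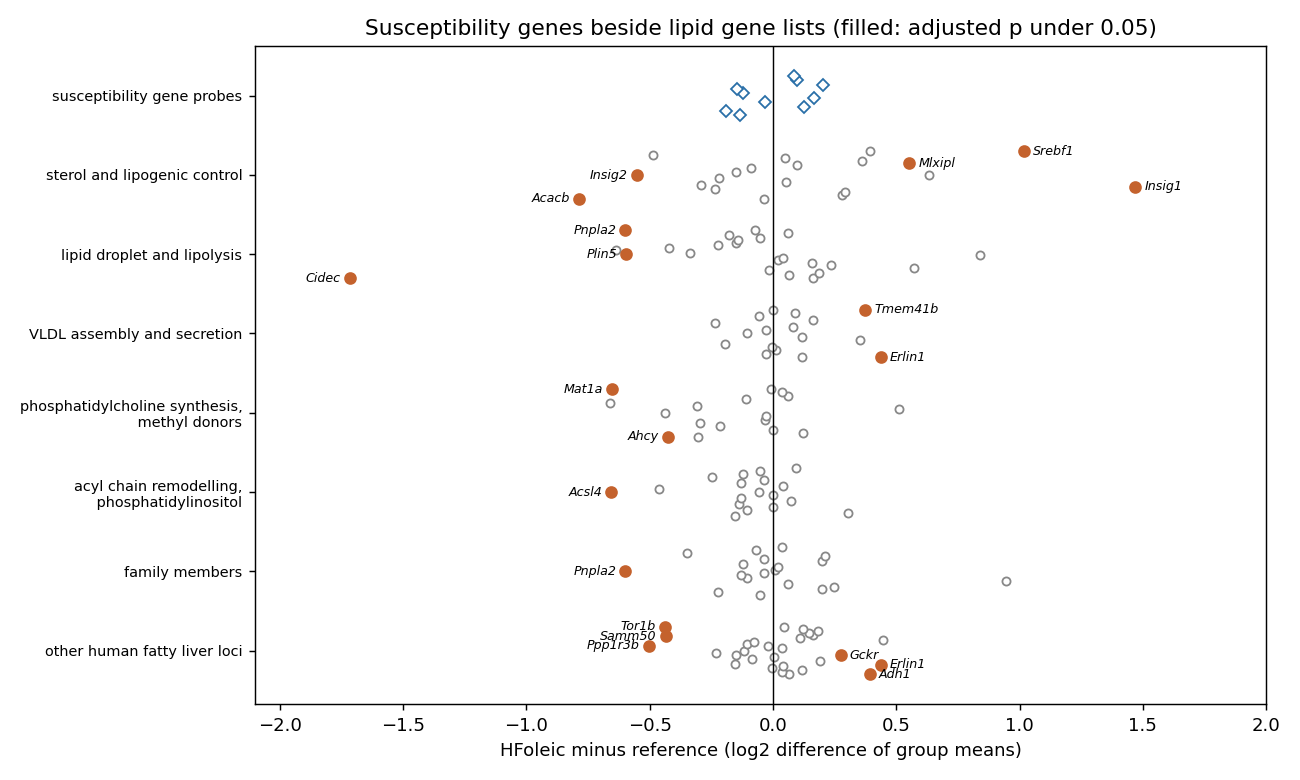
HFoleic minus reference (log2 difference of group means) for the 10 tested susceptibility gene probes (diamonds) and for the genes of 7 lists (circles, brightest tested probe of each gene), with called genes filled and named; 1 list gene is not shown. The diamonds lie between −0.19 and 0.20, and the called genes shown between −1.72 (Cidec) and 1.47 (Insig1).

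In HFepa minus reference 0.391% of genes were called, and of the 132 list genes it was Mlxipl alone, which rose by 0.44 (limma adjusted p = 0.0458). That call was lost in 25 of 35 other settings, among them the fits without reference replicate 5 and with the slide as a block. Rai1, a neighbour of Pemt, fell by 0.28 (limma adjusted p = 0.0250), a call lost in 9 of 35 settings. In HFepa minus HFoleic 0% of genes and none of the list genes were called by limma, although 2910 of all 30003 probes had an unadjusted p under 0.05.

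Across the 24 mice each tested gene had its own set of companions, given here as Pearson correlations of the brightest probes among 19047 genes. Lyplal1 was most like Mipep (0.90), Gatb (0.89) and 3110040N11Rik (0.88), and Hsd17b13 like Comtd1 (0.84), Cln6 (0.84) and Plekha1 (0.81). After subtraction of the group means these were 0.89, 0.88 and 0.86, and 0.86, 0.82 and 0.79. The companions were chosen on these same 24 arrays, reference replicate 5 included, so these values are no separate test. The highest values were lower for Tm6sf2 (Cbr1 0.71), Mboat7 (AI463229 0.71) and Pemt (Plvap 0.67). With Srebf1 the correlation was 0.50 for Lyplal1, 0.47 for Mboat7 probe 1, 0.36 for Pemt, −0.24 for Tm6sf2 and −0.11 for Hsd17b13. After the group means were subtracted these were 0.42, 0.08, 0.14, 0.03 and 0.09, so the sign turned for Tm6sf2 and Hsd17b13. In the same order of genes, the correlations with Mlxipl were 0.15, 0.59, 0.17, −0.54 and −0.23. After subtraction they were 0.006, 0.30, −0.24, −0.37 and −0.25. With Nr1h3 they were 0.62, 0.26, 0.24, −0.25 and −0.39, and after subtraction 0.51, 0.005, 0.13, −0.24 and −0.24. The points share arrays and normalization, and the highest of so many are high in part by their choice.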

How the data were processed

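Total RNA from 24 livers was labelled with Cy3 and hybridised by the authors to Agilent SurePrint G3 mouse arrays, and the deposited scanner files hold the spot intensity from Agilent Feature Extraction 10.10.1.1 with background and outlier flags. The series table deposited by the authors holds filtered, quantile-normalized log2 values of 32176 probes, of which each column followed the log2 median intensity of its array (lowest correlation 0.99968), with medians of 7.82 to 7.83, and was used as an alternative. Here median intensities were averaged over the spots of a probe without outlier spots, log2 transformed, filtered and quantile normalized, and limma 3.58.1 in R 4.3.3 was fitted to the 3 groups over all 24 arrays, with Benjamini-Hochberg adjustment over 30003 probes. Tests are two-sided, n is mice, and the number of arrays limits the precision. The fit was tested on simulated data.

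The members, the lists and the tests were chosen with earlier results of these data known. Named were all members, of each list and comparison the 4 called genes of largest difference, Srebf1, Mlxipl and Nr1h3, and the 3 genes most like each member by correlation, among symbols of the GRCm38.p6 RefSeq table, which also gave the neighbours. Outside this rule, Insig2, Adh1 and Gckr were named to complete counts. Mttp, Apob and the relatives Hsd17b2, Hsd17b7, Hsd17b11 and Hsd17b12 were also named outside it, and were not called. Probe coordinates are those of the scanner files (mm9); exon and UTR status was not analysed here. The effect of 35 other settings is given in the closing section. Replicate numbers were not taken to pair the mice: among 22 pairs of equal number, deviations correlated from −0.30 to 0.35, and 5 exceeded 0.1. Pairs of unequal number were not compared, so these values do not decide whether the numbers pair the mice. The values of 1 list gene are not reported here; it stays in the counts.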

Additional observations from a re-analysis of the deposited data

Results flagged for a closer look

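Of 42 groups of values of the member probes, 2 held a liver whose gap to the next value was large against the range of its group, and chance gives about 1 in 20. HFepa replicate 1 had a signal of 7.47 for Mboat7 probe 4, against 5.88 for the next liver of its group. That gap was 0.745 of the group's range, where the limit for 7 livers is 0.568, and the signal was well above background on that array. Mboat7 probe 4 was outside the tests, and probes 1, 3 and 5 of the gene were in that liver neither the highest nor the lowest of the group. Reference replicate 5 had a signal of 14.27 for Hsd17b13 probe 2, against 13.76 for the next reference liver. That gap was 0.507 of the range, where the limit for 9 livers is 0.493. It is the array that stood apart from its group in the report, and the cause was not tested.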

How the results depend on the processing

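Over 11 other settings and 24 fits without 1 array, 1035 of 1050 differences of single member probes kept their direction and their side of the threshold. In HFoleic minus reference, 1 member probe was called with the scanner's processed signal scaled to the 75th percentile, and 1 with the methods' t-test. In both it was Mboat7 probe 1, at 0.17 (adjusted p = 0.0398) and 0.13 (adjusted p = 0.0250), and over all settings its adjusted p ran from 0.0250 to 0.190; the cause was not tested. No other setting called a member probe, including each fit without 1 array (lowest and highest count 0). The fit with the replicate number as a block (replicate block) called 0 in each comparison, and since a pairing by number was not shown this is no closer test.

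Differences near 0 changed sign. With the processed signal Tm6sf2 probe 2 in HFepa minus HFoleic was at −0.012 and Mboat7 probe 3 in HFoleic minus reference at 0.030, and with normexp background correction the latter was at 0.020. With the replicate block Hsd17b13 probe 1 in HFepa minus reference was at −0.033. Without 1 array, these 3 differences ran from −0.015 to 0.063, from −0.063 to 0.016 and from −0.067 to 0.054.

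Of the 19 list genes called in HFoleic minus reference, 14 were called in each of the 35 settings, and the exceptions were Acacb, Acsl4, Cidec, Gckr and Ppp1r3b. Without 1 array the count ran from 15 to 29, and the highest was without reference replicate 8. In HFepa minus reference the count of list genes was 0 with the processed signal, no filter, outlier spots kept, the slide or slide row as a block, only the groups compared and the methods' t-test, 2 with normexp and with the replicate block, 3 with a stricter filter, and 0 to 5 without 1 array. Signal near background limits Pnpla3 and Mboat7 probes 2 and 4, which have no test.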
